A study of Mus musculus with 2 samples.

Results

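The genes described here are the enzymes and receptors that make and sense prostaglandins and leukotrienes in GR-1+ myeloid cells of mouse mammary tumors treated with anti-PD1. The 10 genes were taken by symbol from the 28692 genes listed in the single-cell count matrices of both tumors: the cyclooxygenases Ptgs1 and Ptgs2, the terminal prostaglandin synthases Hpgds and Ptges, the prostaglandin E2 receptors Ptger2 and Ptger4, the leukotriene synthesis genes Alox5, Alox5ap and Ltc4s, and the platelet-activating factor acetylhydrolase Pla2g7. Each symbol was listed once. In the kept cells the genes ranged from 56 UMIs (unique molecular identifiers, each standing for a captured transcript) of Ptges to 16648 of Ptgs2, and 8 of 10 had at least 200 UMIs. The exceptions were Ptges and Ptger2, with 56 and 81 UMIs.

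The tumors grew from 4T1 cells, a triple-negative breast carcinoma line, in the mammary fat pad of female BALB/c mice aged 8 to 10 weeks. 4T1p is the parental line, which resists anti-PD1, and 4T1m is a polyclonal derivative that was exposed to the mutagen MNNG and responds to it. Both groups received anti-PD1 for 2 weeks, and GR-1+ cells of each tumor type, isolated with magnetic beads, were sequenced as 1 library. The comparison between the libraries therefore has no replicate check and gives no p-value. All 95% intervals below (exact Poisson for levels, exact binomial for ratios and shares) cover counting error only. How many tumors were pooled in a library is not given in the sources used here.

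Prostaglandins and leukotrienes are short-lived lipid signals made from arachidonic acid, which phospholipases release from membranes. Cyclooxygenases convert it to the precursor from which terminal synthases make the individual prostaglandins. Ptgs1 is the more constitutive of the pair and Ptgs2 is the inducible form, best known in activated macrophages and in tumors. The other branch starts with 5-lipoxygenase (Alox5) and its helper protein FLAP (Alox5ap). From their product, leukotriene A4, neutrophils mainly make the chemoattractant leukotriene B4, while cells with leukotriene C4 synthase (Ltc4s) make the cysteinyl leukotrienes. In myeloid cells of tumors, prostaglandin E2 acting on the receptors EP2 (Ptger2) and EP4 (Ptger4) is known for restraining immune responses.

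The filters kept 1128 of 1641 barcodes of the library labelled 4T1p and 2092 of 2749 of the library labelled 4T1m, and no barcode sequence occurred in both libraries. Median depth over all barcodes was 2066 UMIs for 4T1p and 2763 for 4T1m. In the methods of the study the medians stand against the other condition in each case, so every direction between the libraries rests on the labels of the deposited files. Clustering without the 10 genes and without the other pathway genes gave 10 groups of cells, called states here and named by a leading gene. There were 4 monocytic-like states (677 cells in 4T1p, 725 in 4T1m), 4 granulocytic-like states (251 and 1022), 1 lymphocyte-like state (8 and 55) and 1 unnamed state of low depth led by Fabp5 and Lgals1 (192 and 290). Monocytic-like cells held Apoe, Csf1r and C1qa, and the granulocyte antigen gene Ly6g was almost absent from them (7 UMIs, against 945 in granulocytic-like cells). Ly6g was seen in only 12.9% of granulocytic-like cells. The other granulocytic markers were seen in 2.50% (Cxcr2) to 48.6% (S100a9) of monocytic-like cells. Their levels there were lower, as for S100a9 with 510 against 82206 CPM and Clec4d with 197 against 1219 CPM. A share of 54.1% of the kept cells of 4T1p and 24.7% of those of 4T1m had no UMI of the leukocyte gene Ptprc.

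The monocytic-like states differed in depth and in their weight in the libraries. The state led by Ccl5 and Cx3cr1 held 194 and 215 cells of 4T1p and 4T1m, and the state led by Thbs1 and Vcan held 91 and 303, with medians of 13686 and 10274 UMIs per cell. The state led by Tmem176b and Aif1 held 298 and 108 cells, and the state led by the proliferation genes Birc5 and Top2a held 94 and 99, with medians of only 1181 and 1487 UMIs. As a result, the median depth of monocytic-like cells was 2000 UMIs in 4T1p and 8519 in 4T1m, so levels are given as CPM (counts per 1000000 UMIs of a group), and shares of cells with a UMI also after thinning each cell to 1000 UMIs. The libraries count transcript ends, so no scaling by gene length was applied, and levels are compared between groups of cells and not between genes. The exceptions are the shares of Ptgs2 in Ptgs1 plus Ptgs2 and of Ptger4 in Ptger4 plus Ptger2. These are shares of counts, not adjusted for differences in capture between the genes.

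The cyclooxygenases were distributed unlike each other. Ptgs1 (chr2:36230426-36252272 on GRCm38, plus strand) was found almost entirely outside granulocytic-like cells. Its level was 164 CPM in monocytic-like cells of 4T1p (95% interval 152 to 176) and 128 CPM in those of 4T1m (120 to 137), against 12.1 and 10.8 CPM in granulocytic-like cells. The monocytic-like groups lay far above both granulocytic-like groups in each library. The log2 ratio of monocytic-like over granulocytic-like cells was 3.75 in 4T1p (2.87 to 4.82) and 3.57 in 4T1m (3.08 to 4.11).

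Ptgs2 (chr1:150100031-150108227 on GRCm38, plus strand) was found in both lineages. In granulocytic-like cells its level was 759 CPM in 4T1p (700.3 to 820.5) and 857 CPM in 4T1m (825 to 890.3). In monocytic-like cells it was 409.6 CPM in 4T1p (391 to 429) and 1706 CPM in 4T1m (1675 to 1737). Summed over each lineage, monocytic-like cells thus lay below granulocytic-like cells in 4T1p (log2 ratio -0.89, interval -1.02 to -0.75) and above them in 4T1m (0.99, interval 0.93 to 1.05). This scale has a shift of its own: the median gene with at least 200 UMIs was higher in monocytic-like cells by a log2 ratio of 0.76 in 4T1p and 0.89 in 4T1m. Scaling by the median gene was not run for the ratio of the lineages. The size of the Ptgs2 ratio moved with the processing, while its sign held in the alternatives that were run. In 4T1m it was 0.13 with states weighted equally, 0.37 with the lineage set per cell from marker UMIs and 1.63 with at most 5% mitochondrial UMIs. In 4T1p it was -1.58 after thinning and -1.92 as the mean of per-cell CPM. By state, only the Thbs1 state of 4T1m, at 2523 CPM, lay above every granulocytic-like state of that library. The Ccl5, Birc5 and Tmem176b states stood at 1078, 222 and 89.1 CPM there. The granulocytic-like states led by Ccdc126, Mirt1, Slc2a3 and Camp stood at 1233, 1211, 837 and 293 CPM.

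The promoters of this pair are shown because the levels of the genes part so clearly between lineages. The 250 bases before the start of each gene are given 5′ to 3′ on the plus strand from RefSeq on GRCm38.p6, at chr1:150099781-150100030 for Ptgs2 and chr2:36230176-36230425 for Ptgs1. Capitals mark the letters TTGCGCAA, a palindrome of the C/EBP type, GGGCGG, the core of GC boxes, and GAGGAA, the core of PU.1-type sites, on either strand.
Ptgs2: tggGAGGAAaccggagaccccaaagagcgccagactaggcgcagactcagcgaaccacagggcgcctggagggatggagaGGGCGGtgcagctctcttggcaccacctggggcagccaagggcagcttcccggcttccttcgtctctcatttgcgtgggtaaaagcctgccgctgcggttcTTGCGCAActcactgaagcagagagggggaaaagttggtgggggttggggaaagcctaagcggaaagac
Ptgs1: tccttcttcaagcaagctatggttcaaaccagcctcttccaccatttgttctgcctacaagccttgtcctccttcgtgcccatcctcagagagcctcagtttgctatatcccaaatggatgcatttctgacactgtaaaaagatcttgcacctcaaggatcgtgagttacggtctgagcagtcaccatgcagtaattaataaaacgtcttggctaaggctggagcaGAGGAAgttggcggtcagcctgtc
Ptgs2 held TTGCGCAA beginning 69 bases before its start, GGGCGG at 170 bases and GAGGAA at 247 bases. Ptgs1 held only GAGGAA of these, beginning 24 bases before its start. TTGCGCAA occurred in 46 of 27025 promoters of that length (0.170%), GGGCGG in 32.9% and GAGGAA in 23.1%. No other promoter of the 9 members with an entry held TTGCGCAA, and Alox5ap had no entry. The TATA box (TATAAA), the E-box (CACGTG), the CRE (TGACGTCA) and the CCAAT box were also searched on both strands, and neither window held any of them. Bases after the annotated start and further upstream were not searched, so the absence holds for these windows only. They occur in 12.97%, 6.05%, 1.62% and 34.5% of promoters. These matches describe letters and were not tied to the levels.

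**Figure D1:**
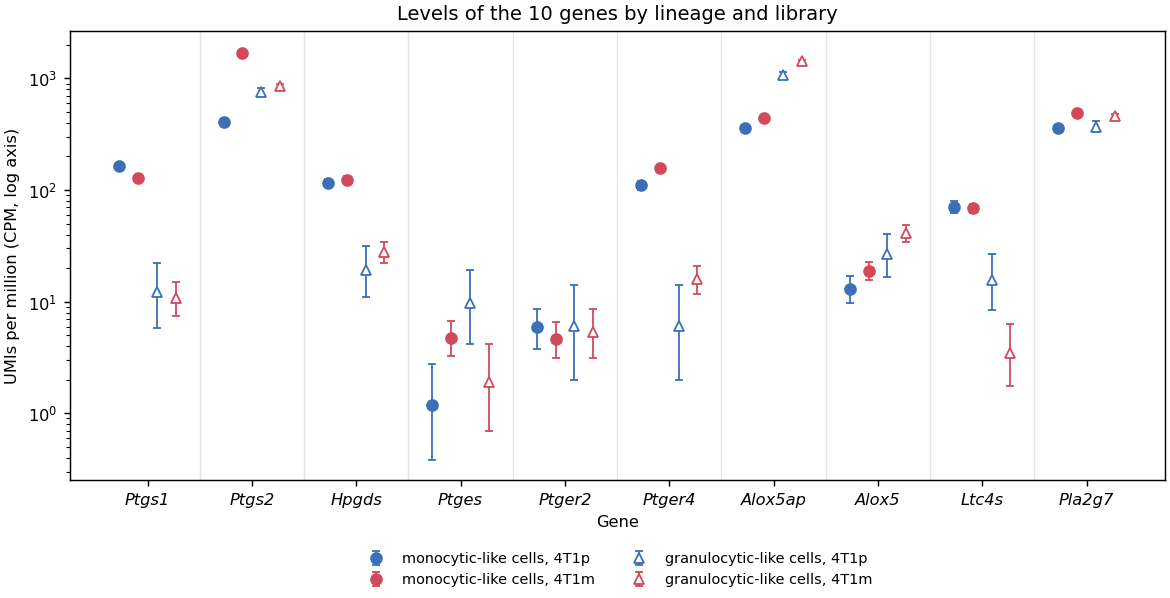
Level of each of the 10 genes (CPM on a log axis) in monocytic-like cells (filled circles) and granulocytic-like cells (open triangles) of the libraries 4T1p (blue) and 4T1m (red), with exact Poisson 95% intervals. Ptgs1, Hpgds, Ptger4 and Ltc4s sit higher in monocytic-like cells of both libraries, Alox5ap and Alox5 sit lower, and the 4 points of Ptgs2 range from 409.6 to 1706 CPM with the lineages in opposite order in the libraries.

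Across all members with at least 200 UMIs in the groups compared, 4 of 7 were at least 2-fold higher in monocytic-like than in granulocytic-like cells of 4T1p with an interval excluding 0, where 45.6% of all 3057 genes were. In 4T1m the count was 4 of 8, against 47.5% of 4952 genes. The members were the same in both libraries: Ptgs1, Ptger4, Ltc4s and Hpgds. At least 2-fold lower were 1 of 7 in 4T1p (Alox5ap, background 13.3%) and 2 of 8 in 4T1m (Alox5ap and Alox5, background 11.3%). The share of members higher in monocytic-like cells was thus near the share over all genes. The median log2 ratio of the passing members was 2.16 in 4T1p and 1.58 in 4T1m.

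The terminal synthase Hpgds, which makes prostaglandin D2 (chr6:65117293-65144908, minus strand), stood at 116 CPM in monocytic-like cells of 4T1p and 124 CPM in those of 4T1m. In granulocytic-like cells it stood at 19.4 and 27.6 CPM. The log2 ratios were 2.58 (1.86 to 3.40) and 2.16 (1.84 to 2.50). Within the lineages Hpgds was uneven. It was highest in the Ccl5 state, at 143 CPM in 4T1p and 202 CPM in 4T1m. The Birc5 state was next, at 125 CPM in 4T1p on only 36 UMIs and 145 CPM in 4T1m. Hpgds stood at 101 and 103 CPM in the Tmem176b state and at 53.1 and 58.3 CPM in the Thbs1 state. Of its UMIs 60.1% came from the Ccl5 state, which held 32.1% of all UMIs. Among granulocytic-like states it stood at 61.5 CPM (31.8 to 107.5) in 4T1p and 64.0 CPM (47.9 to 83.7) in 4T1m in the state led by Ccdc126 and Ciart. In the state led by Mirt1 and Hdc it had 0 UMIs in 4T1p, which allows up to 9.40 CPM, and 15.5 CPM in 4T1m on 12 UMIs.

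Ptges, the inducible synthase of prostaglandin E2 (chr2:30889471-30929863, minus strand), was barely detected. It had 5 and 32 UMIs in monocytic-like cells of 4T1p and 4T1m, and 8 and 6 in granulocytic-like cells. Of the 37 UMIs in monocytic-like cells, 30 came from the Thbs1 state. With so few counts, its ratios had wide intervals: the log2 ratio of 4T1m over 4T1p was 2.02 (0.65 to 3.74) in monocytic-like cells. In granulocytic-like cells it was -2.35 (-4.15 to -0.63).

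The receptor gene Ptger4 (chr15:5206661-5244187, minus strand) carried nearly all of the summed Ptger4 and Ptger2 counts of monocytic-like cells. Its level there was 110.5 CPM in 4T1p (101 to 121) and 157 CPM in 4T1m (148 to 167), and in granulocytic-like cells it was 6.07 and 15.9 CPM. The log2 ratios of the lineages were 4.19 (2.95 to 5.82) and 3.31 (2.90 to 3.75). Of the summed UMIs of Ptger4 and Ptger2 in monocytic-like cells, Ptger4 made up 94.9% in 4T1p and 97.1% in 4T1m. It was highest in the Ccl5 state (147 CPM in 4T1p, 217 in 4T1m), followed by the Thbs1 state (92.4 and 129), while the Tmem176b state held 19.1 and 42.8 CPM. The lymphocyte-like cells also held it, at 98.2 CPM over both libraries (68.4 to 137), with a UMI in 25.4% of 63 cells. Ptger2 (chr14:44988195-45003820, plus strand) had no more than 31 UMIs in any of these groups, and its levels of 4.63 to 6.07 CPM overlapped between lineages and libraries.

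The leukotriene genes showed the reverse order for 5-lipoxygenase and its helper. Alox5ap (chr5:149264767-149288153, plus strand) stood at 1075 CPM in granulocytic-like cells of 4T1p (1006 to 1149) and 1427 CPM in those of 4T1m (1385 to 1469). In monocytic-like cells it stood at 360.4 and 441 CPM. The log2 ratios of monocytic-like over granulocytic-like cells were -1.58 (-1.70 to -1.46) and -1.69 (-1.76 to -1.63). Among granulocytic-like states the level climbed from 482 and 768 CPM in the Ccdc126 state through 674 and 816 in the Mirt1 state and 1403 and 1814 in the state led by Slc2a3, Steap4 and Cxcr2 to 2063 and 2228 CPM in the state led by Camp, Ngp and Ltf, whose leading genes encode proteins of neutrophil granules. The values are for 4T1p and 4T1m in turn, and the order of the 4 states was the same in both. The intervals of the Ccdc126 and Mirt1 states overlapped in each library, and those of the other neighbours did not. In the Camp state 99.4% of 180 cells had an Alox5ap UMI. In lymphocyte-like cells, 1.59% of 63 had an Alox5ap UMI at a median depth of 4203 UMIs.

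Alox5 itself (chr6:116410077-116461178, minus strand) was sparse. It stood at 26.7 CPM (16.7 to 40.4) and 41.3 CPM (34.5 to 49.0) in granulocytic-like cells of 4T1p and 4T1m, and at 12.96 (9.76 to 16.9) and 19.0 CPM (15.8 to 22.6) in monocytic-like cells. The intervals of the lineages just overlapped in 4T1p and lay apart in 4T1m, with log2 ratios of -1.04 on 77 UMIs and -1.12 on 257. In the Camp state it stood at 37.1 CPM in 4T1p on 8 UMIs (16.02 to 73.1) and at 80.5 CPM in 4T1m on 82 UMIs (64.0 to 99.9). In 4T1m this was the highest of the states, above the Mirt1 state with 30.9 CPM, while in 4T1p its interval held the levels of the Slc2a3 and Mirt1 states, 31.9 and 28.2 CPM.

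Ltc4s, the leukotriene C4 synthase gene (chr11:50236461-50238616, minus strand), was near its detection limit in granulocytic-like cells of 4T1m. In monocytic-like cells it stood at 70.7 CPM in 4T1p and 68.7 CPM in 4T1m, against 15.8 and 3.495 CPM in granulocytic-like cells. The log2 ratios were 2.16 (1.37 to 3.09) and 4.30 (3.44 to 5.31). In 4T1p the granulocytic-like count was only 13 UMIs, and after thinning each cell to 1000 UMIs the ratio there was -0.0647, so the order of the lineages in 4T1p was not settled at this depth. The Camp state, in which Alox5ap was highest, had 0 Ltc4s UMIs among 1234626, which allows up to 2.43 CPM. The Thbs1 state held it at 98.8 CPM in 4T1p and 96.7 in 4T1m, above the Ccl5 state with 57.3 and 43.2 CPM. In 4T1p the Birc5 state (101 CPM) and the unnamed state (106 CPM) held it at like levels.

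A finer partition of the same cells, at a resolution of 1.2, drew out 116 monocytic-like cells led by Cd163, Gja1, Ednrb and Cbr2. In these cells Ltc4s stood at 253 CPM in 4T1p (193 to 326) and 246 CPM in 4T1m (214 to 281), and they held 32.1% of all Ltc4s UMIs. They also held Alox5 at 71.7 CPM in 4T1p (41.7 to 115) and 55.7 CPM in 4T1m (41.2 to 73.7), and Alox5ap at 767 and 704 CPM. The finer cluster led by Sdc1, Inhba and Thbs1, with 249 cells, held Ltc4s at 36.6 CPM and Alox5 at 6.72 CPM over both libraries. This description was chosen after the values were seen. Mast cells and eosinophils are known sources of cysteinyl leukotrienes. Over all monocytic-like cells, the 7 mast cell markers summed to 5.89 and 3.88 CPM in 4T1p and 4T1m. The eosinophil genes Epx, Prg2 and Ear6 had 0 UMIs there, while the levels of Siglecf and Ccr3, also on that list, are not given here. Markers were not summed within the finer cluster of 116 cells, so these values do not describe it. The 5 basophil markers summed to 1.18 and 2.39 CPM. Of the platelet markers Gp9 and Gp1bb were at 0, while Pf4 led the Thbs1 state and carried the list to 458 and 859 CPM, and its part in the results was not tested.

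Pla2g7, which inactivates platelet-activating factor (chr17:43568098-43612201, plus strand), was the member most evenly spread over the lineages. It stood at 359.9 and 487 CPM in monocytic-like cells of 4T1p and 4T1m and at 370.2 and 459 CPM in granulocytic-like cells. The log2 ratios of the lineages, -0.04 (-0.22 to 0.14) and 0.08 (-0.01 to 0.17), had intervals that included 0. In 4T1p it ranged from 215 CPM in the Birc5 state to 553 CPM in the Slc2a3 state, leaving out the lymphocyte-like cells. In 4T1m it ranged from 284 CPM in the Birc5 state to 741 CPM in the Tmem176b state. The lymphocyte-like cells held it at 30.9 CPM, from 2 of 63 cells.

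**Figure D2:**
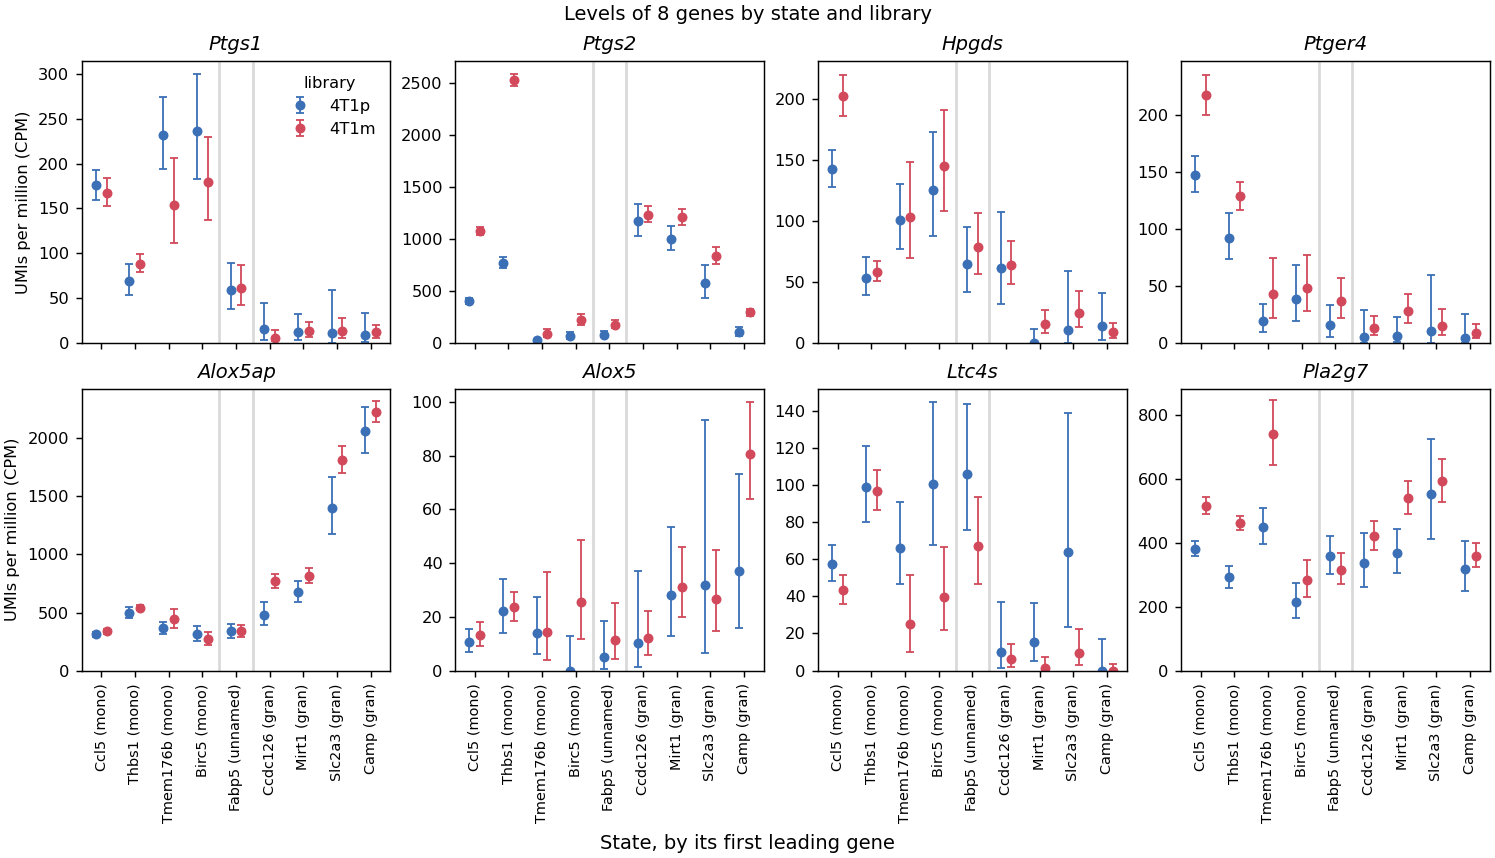
Level (CPM, linear axes that start at 0) of the 8 genes with at least 200 UMIs in each state and library (4T1p blue, 4T1m red), with exact Poisson 95% intervals. States are ordered with the 4 monocytic-like states on the left, the unnamed state between the grey lines and the 4 granulocytic-like states on the right. Alox5ap climbs toward the Camp state, Hpgds peaks in the Ccl5 state of both libraries, and Ptgs2 reaches 2523 CPM in the Thbs1 state of 4T1m.

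Between the libraries as labelled, Ptgs2 in monocytic-like cells stood apart from the other members with at least 200 UMIs. If the labels of the deposited files were exchanged, every direction between the libraries given here would be the reverse. Its log2 ratio of 4T1m over 4T1p was 2.06 (1.99 to 2.13), with the levels given above. Of 7 members with at least 200 UMIs it alone was at least 2-fold higher with an interval excluding 0, where 7.07% of 5514 genes were, and 0 were at least 2-fold lower, where 1.4% of genes were. The median gene had a ratio of 0.15. Ptger4 had a ratio of 0.51 (0.35 to 0.67), Pla2g7 of 0.44 (0.35 to 0.52), Alox5ap of 0.29 (0.20 to 0.38), Hpgds of 0.10 (-0.07 to 0.26) and Ltc4s of -0.04 (-0.25 to 0.17). The partner enzyme Ptgs1 went the other way, with a ratio of -0.35 (-0.50 to -0.20). Below the minimum of UMIs, Ptges had a ratio of 2.02 (0.65 to 3.74), on 5 UMIs in 4T1p and 32 in 4T1m.

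In granulocytic-like cells the ratio of Ptgs2 was only 0.18 (0.05 to 0.30), and the intervals of the ratio in the lineages lay far apart. The other members with at least 200 UMIs there were Alox5ap, with a ratio of 0.41 (0.30 to 0.51), and Pla2g7, with 0.31 (0.13 to 0.49). None of the 3 was at least 2-fold higher or lower, where 5.03% and 2.51% of 1989 genes were, and no test across replicates was possible.

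The library difference of Ptgs2 was present within each monocytic-like state. In the Thbs1 state it stood at 770.4 CPM in 4T1p (715 to 829) and 2523 CPM in 4T1m (2469 to 2578), a log2 ratio of 1.71 (1.60 to 1.82), where 4.37% of genes were at least 2-fold higher. In the Ccl5 state it stood at 401 and 1078 CPM, a ratio of 1.42 (1.32 to 1.53), where 6.89% were. The low-depth states had few counts: 15 and 25 UMIs in the Tmem176b state (ratio 1.77, interval 0.79 to 2.80) and 19 and 78 in the Birc5 state (1.75, interval 1.01 to 2.56). With the states weighted equally, the ratio over monocytic-like cells was 1.63. The Tmem176b state, with Ptgs2 at 26.1 and 89.1 CPM, made up more of the monocytic-like cells of 4T1p (298 of 677) than of 4T1m (108 of 725).

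Among granulocytic-like states the ratio of Ptgs2 was 0.07 in the Ccdc126 state (-0.14 to 0.28), 0.27 in the Mirt1 state (0.09 to 0.46) and 0.54 in the Slc2a3 state (0.13 to 0.98), none of them at least 2-fold. Of all genes 5.46%, 6.75% and 5.42% were at least 2-fold higher in 4T1m in these states. The Camp state differed from these, with 102.02 CPM in 4T1p (63.9 to 154) and 293 CPM in 4T1m (261 to 329), a ratio of 1.52 (0.90 to 2.22) from 25 and 155 cells, where 12.1% of genes were at least 2-fold higher. It was also the granulocytic-like state with the lowest Ptgs2 level in both libraries. The order of Alox5ap and of Ptgs2 over these 4 states was thus not the same: the Camp state was highest for the former and lowest for the latter.

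**Figure D3:**
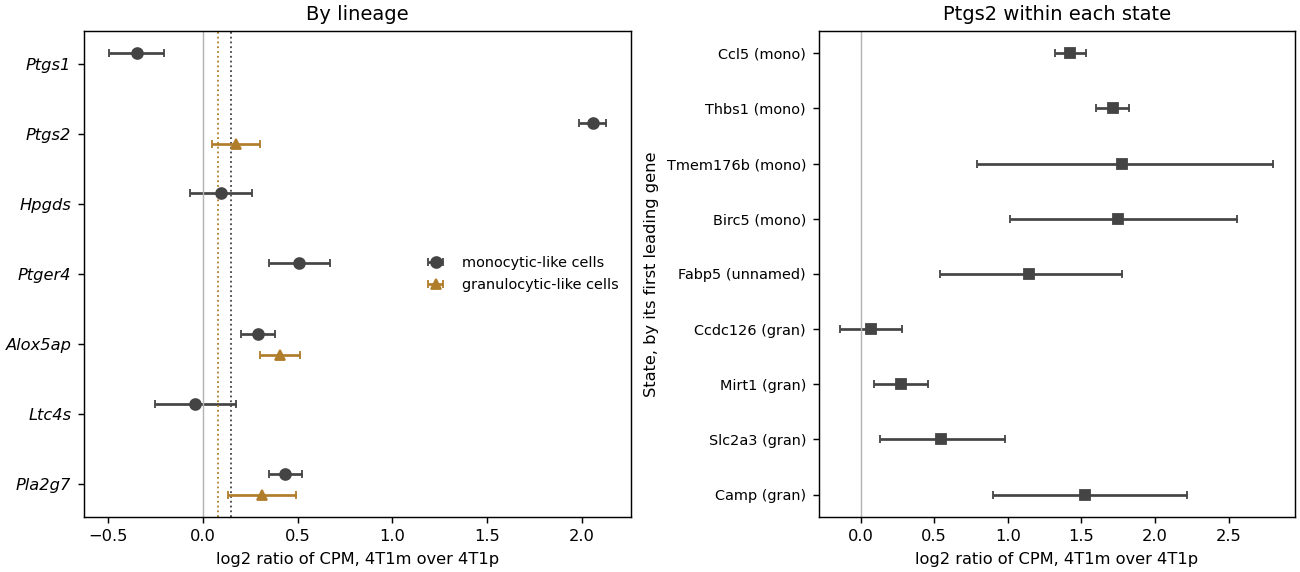
Log2 ratio of CPM of 4T1m over 4T1p with 95% intervals from counting. The left panel gives the members with at least 200 UMIs in monocytic-like (circles) and granulocytic-like cells (triangles), with dotted lines at the median gene of each lineage (0.15 and 0.08). The right panel gives Ptgs2 within each state, where the 4 monocytic-like states lie between 1.42 and 1.77 and the granulocytic-like states between 0.07 and 1.52.

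Ptgs2 was carried by many cells, with large amounts in some of them. In monocytic-like cells a UMI was seen in 24.4% of 677 cells of 4T1p (21.2 to 27.8) and in 56.0% of 725 cells of 4T1m (52.3 to 59.7). After thinning, with 198 and 71 shallower cells left out, the shares were 16.7% (13.5 to 20.3) and 37.5% (33.7 to 41.3). Without thinning, at median depths of 2000 and 8519 UMIs, cells with at least 10 Ptgs2 UMIs made up 9.01% and 31.9%. The highest cell held 80 UMIs in 4T1p and 244 in 4T1m, also without thinning. In granulocytic-like cells the shares with a UMI were 54.2% of 251 and 54.3% of 1022, and 41.0% and 39.7% after thinning. In the lymphocyte-like cells a Ptgs2 UMI was seen in 7.94% of 63, at a median depth of 4203 UMIs, and 37 of their 41 UMIs lay in a single cell. The median depth of granulocytic-like cells was 2714 in 4T1p and 2472 in 4T1m. The shares in both main lineages were thus above that in lymphocyte-like cells.

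As background, Ptgs2 and immediate early genes are known to respond to the digestion of tissue. A list of 12 immediate early and heat shock genes (Fos, Fosb, Jun, Junb, Egr1, Ier2, Ier3, Atf3, Dusp1, Zfp36, Hspa1a and Hspa1b), listed after the values of Ptgs2 were seen, was set beside it. In monocytic-like cells, where Ptgs2 was higher in 4T1m, they summed to 14867 CPM in 4T1p and 8304 CPM in 4T1m. Their ratios of 4T1m over 4T1p ran from -1.41 for Ier2 to -0.22 for Fosb, so all 12 ratios lay below 0, and 4 of the genes were at least 2-fold lower in 4T1m, where 1.4% of all genes were. In granulocytic-like cells their ratios ran from -0.84 for Ier3 to 0.52 for Fosb, with 3 above 0 (Fosb, Hspa1b and Atf3), and none was at least 2-fold higher or lower, where 5.03% and 2.51% of all genes were. The part of digestion in the level of Ptgs2 was not tested.

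The balance of the cyclooxygenases was taken as the share of Ptgs2 in the summed UMIs of Ptgs1 and Ptgs2. It restates the counts behind the ratios above and is not a separate line of evidence. In monocytic-like cells this share was 71.4% in 4T1p (69.6 to 73.2) and 92.998% in 4T1m (92.5 to 93.4). In granulocytic-like cells it was 98.4% (97.1 to 99.2) and 98.8% (98.3 to 99.1). The monocytic-like states spread widely: the share was 91.8% and 96.6% in the Thbs1 state, 69.6% and 86.6% in the Ccl5 state, 21.8% and 55.3% in the Birc5 state, and 10.1% and 36.8% in the Tmem176b state, for 4T1p and 4T1m. In each of these 4 states the intervals of the libraries lay apart. The Birc5 and Tmem176b states, where Ptgs1 made up more of the counts, were also the states of low depth, and the part of RNA quality in this order was not tested.

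**Figure D4:**
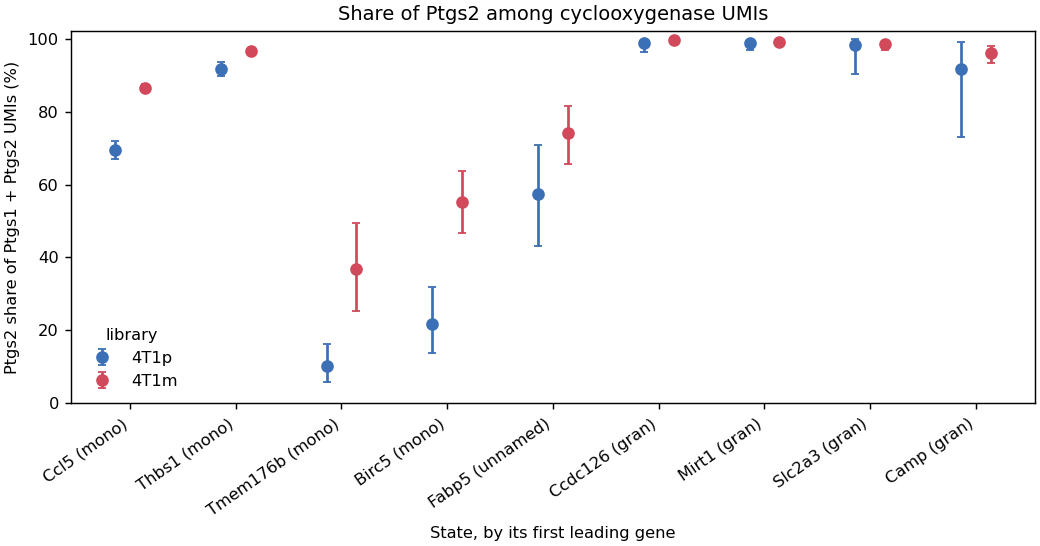
Share of Ptgs2 in the summed UMIs of Ptgs1 and Ptgs2 (percent, axis from 0) in each state of 4T1p (blue) and 4T1m (red), with exact binomial 95% intervals. The 4 monocytic-like states on the left range from 10.1% to 96.6% and are higher in 4T1m, while the granulocytic-like states on the right lie above 91%.

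Members were also detected together in cells. In the 1133 monocytic-like cells deep enough for thinning, 325 held Ptgs2, 108 held Ptger4 and 49 held both, where the product of the shares gives 31.0. Within the Thbs1 state, however, the count of 24 cells was close to its product of 23.7, and within the Ccl5 state 24 cells stood against 16.7. Ptgs1 and Ptgs2 were seen together in 32 thinned monocytic-like cells, with a product of 33.6. In granulocytic-like cells Ptgs2 and Alox5ap were seen together in 231 of 1166 thinned cells, with a product of 269. Within states the counts lay nearer their products in the Mirt1 state (81 against 81.5) and the Camp state (25 against 26.35). They were 70 against 78.4 in the Slc2a3 state and 55 against 67.4 in the Ccdc126 state. The cells of a library are not replicates, and these counts carry no test.

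Likeness was measured over 19 groups (states by library with at least 20 cells) as the Pearson correlation of log2(CPM + 10) among 6416 genes with at least 200 UMIs. It is a description, since the groups share libraries and depth. Nearest to Ptgs1 was Cx3cr1, the fractalkine receptor gene, with r = 0.97, followed by Gatm and Fads1. For Ptgs2 it was Mdm2, with r = 0.94, then St3gal1 and Ifrd1. Alox5ap was most like Pygl, the glycogen phosphorylase gene, with r = 0.97, and Pygl was also among the 3 genes most like Alox5, after Pira2 and Zyx. Ltc4s was most like Sdc3 (r = 0.92), and Ptger4 most like Dyrk2 (r = 0.96), Socs7 and Gm6377. For Hpgds the nearest were Coro7, Immt and Spcs2, and for Pla2g7 they were Tyrobp, Fcer1g and Lamp2, with r of 0.91 and 0.90 for the nearest gene.

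Of 64 other listed genes of the pathway, 29 had at least 200 UMIs in monocytic-like and granulocytic-like cells of both libraries together. The levels and ratios of the lineages given next for these genes also pool both libraries. Of these, 20 were at least 2-fold higher in monocytic-like cells, where 49.5% of 6128 genes were, and 5 were at least 2-fold lower, where 10.9% were. The median of the 29 was 2.27, beside 0.98 over all genes. Within each library, 9 of 16 were higher in 4T1p (background 45.6%) and 14 of 22 in 4T1m (47.5%). At least 2-fold lower were 4 of 16 in 4T1p (background 13.3%) and 4 of 22 in 4T1m (11.3%).

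Upstream and in prostanoid synthesis, the higher genes included Pla2g4a, the cytosolic phospholipase that releases arachidonic acid, at 61.0 against 6.80 CPM (log2 ratio 3.16). The thromboxane synthase gene Tbxas1 stood at 111 against 2.77 CPM (5.32), and Cbr2 at 34.1 against 0.755 CPM, from only 3 granulocytic-like UMIs (5.50, interval 3.94 to 7.78). Ptgr1, which inactivates prostaglandins and leukotriene B4, was higher at 22.6 against 2.27 CPM, and Hpgd, the prostaglandin dehydrogenase gene, had 0 UMIs in both lineages.

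The leukotriene receptors split between the lineages. Cysltr1, a receptor for cysteinyl leukotrienes, stood at 92.4 CPM in monocytic-like and 5.04 CPM in granulocytic-like cells (log2 ratio 4.197). Ltb4r1, the high-affinity receptor for leukotriene B4, stood at 41.2 and 137 CPM (-1.74). The enzyme that breaks down leukotriene B4 in neutrophils, Cyp4f18, stood at 42.04 and 289 CPM (-2.78). The other lower genes were Fpr2, a formyl peptide and lipoxin receptor gene (-3.61), Ptafr, the receptor gene for platelet-activating factor (-1.76), and Ggt5 (-1.10). Lta4h, whose enzyme makes leukotriene B4, stood at 21.7 and 19.6 CPM, with an interval that included 0 (0.14, interval -0.23 to 0.53).

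Between the libraries, 2 of 25 pathway genes with at least 200 UMIs were at least 2-fold higher in monocytic-like cells of 4T1m, where the background given above is 7.07%, and 1 was lower, where it is 1.4%. The higher genes were Abcc1, an exporter of leukotriene C4, at 16.7 CPM in 4T1p and 65.3 CPM in 4T1m (log2 ratio 1.96, interval 1.60 to 2.35), and Acsl4, which couples arachidonic acid to coenzyme A, at 44.8 and 105 CPM (1.24, interval 1.00 to 1.48). The lower gene was the lysosomal phospholipase gene Pla2g15, at 61.5 and 28.7 CPM (-1.10, interval -1.38 to -0.83). In granulocytic-like cells 0 of 7 pathway genes were at least 2-fold higher or lower, where 5.03% and 2.51% of all genes were, so a count of 0 is near the background. Their ratios ran from -0.39 for Ltb4r1 to 0.60 for Pafah1b1.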

How the data were processed

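Transcriptomes of single GR-1+ cells were analysed from 1 library of each tumor type, 4T1p and 4T1m, after anti-PD1. The matrices that the authors deposited hold unnormalized UMI counts, made with Cell Ranger on mm10 (per the file headers version 3.1.0, and another version stands in the methods of the study) and limited to barcodes called as cells. The 10 members and the lists of pathway and marker genes were chosen with earlier results of these data known.

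Barcodes were kept if they had 250 to 5000 genes, no more than 27000 UMIs and a mitochondrial share up to 12.5%. Cells without a Ptprc UMI and likely doublets (Scrublet in scanpy) stayed in and were left out as alternatives. The ribosomal RNA genes Gm42418 and AY036118 were left out of totals. SCTransform (3000 variable genes without members and pathway genes, mitochondrial share regressed out), 11 principal components and Louvain clustering at a resolution of 0.8 gave the states. A state was lymphocyte-like when at least 25% of its cells held a UMI of 2 of 3 B or T cell markers, and otherwise took the lineage whose markers had the higher mean relative share. It stayed unnamed when its median depth in a library was below that library's median divided by 3, with none of those markers among its 10 leading genes.

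Levels are summed counts in CPM with exact Poisson intervals, and ratios are log2 ratios of CPM with intervals from exact binomial limits on the division of the counts between groups, all computed from the deposited counts. A call needed a ratio of at least 2-fold, an interval excluding 0 and at least 200 UMIs in both groups together. A count of 0 was given a limit of 3 counts. Named genes were the members, pathway genes with at least 200 UMIs, the 3 genes most like each member (for Ltc4s only the nearest is reported here), 5 leading genes per state and the markers. The lineage comparison, the library ratios of Ptgs2 and the cyclooxygenase share were recomputed with other filters, clusterings, lineage rules and scalings. Intervals, and the sign of ratios whose interval excluded 0, were checked on simulated Poisson counts. Such counts have only the error that the intervals assume, so the check does not cover spread between cells. The 2-fold call was not checked. Gene places are from GENCODE vM21 and promoters from RefSeq. No member shares exons with a gene on its own strand. States were made in R 4.3.3 (Seurat 5.3.0, Matrix 1.6.5, sctransform 0.4.2). All else was computed in Python 3.11.15, with scanpy 1.11.5 for doublets, scipy 1.17.1 for intervals, matplotlib 3.10.9 for plots, and pandas 2.3.3 and numpy 2.4.6 for tables.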

Additional observations from a re-analysis of the deposited data

Results flagged for a closer look

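The log2 ratio of monocytic-like over granulocytic-like cells had opposite signs in the libraries for Ptgs2, at -0.89 in 4T1p and 0.99 in 4T1m, with both intervals excluding 0, and at 0.13 in 4T1m with states weighted equally. Ptges showed the same, at -3.04 in 4T1p and 1.33 in 4T1m, on 13 and 38 UMIs, but with the lineage set per cell from marker UMIs its ratio in 4T1m was -0.67 and the signs were no longer opposite. For Ptges the ratio of 4T1m over 4T1p was likewise of opposite sign in the lineages, at 2.02 in monocytic-like and -2.35 in granulocytic-like cells, on 37 and 14 UMIs. With 1 library per tumor type these differences were not tested across replicates. The lineage ratios were not scaled by the median gene, which stood at 0.76 in 4T1p and 0.89 in 4T1m.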

How the results depend on the processing

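The log2 ratio of Ptgs2 between the libraries in monocytic-like cells (2.06) kept its direction in all 13 alternatives. It was 1.93 with a Ptprc UMI required, 2.37 with at most 5% mitochondrial UMIs, 1.97 without upper limits on genes or UMIs, 1.97 with the lineage set per cell from marker UMIs, 2.30 after thinning, 2.64 as the mean of per-cell CPM, 1.91 with the median of gene ratios as scaling and 1.63 with states weighted equally. In granulocytic-like cells (0.18) it was 0.35 with a Ptprc UMI required, 0.63 with the lineage set per cell and 0.32 with states weighted equally. The share of Ptgs2 in cyclooxygenase UMIs of monocytic-like cells (89.4% over both libraries) was 89.97%, 94.9%, 87.0%, 88.4%, 85.9% and 79.9% with a Ptprc UMI required, with the 5% limit, without upper limits, with the lineage set per cell, as the mean of per-cell CPM and with states weighted equally. That of granulocytic-like cells (98.7%) was 98.2% with the lineage set per cell. The counts of members higher in monocytic-like cells, here over all 10 members without a minimum of UMIs, stayed between 3 and 4 in 4T1p and between 4 and 6 in 4T1m. For the mean of per-cell CPM and for states weighted equally, these counts required the 2-fold ratio only, without an interval. The share over all genes was not computed for these alternatives, so the counts have no background beside them. Equal weights for states and the unnamed state counted as monocytic-like were chosen after seeing the data. Reversed were the lineage ratio of Ltc4s in 4T1p after thinning (-0.0647), that of Ptges in 4T1m with the lineage set per cell (-0.67), and the ratio of Ptger4 between the libraries in granulocytic-like cells with the lineage set per cell (-0.22). The cause was not tested. The opposite order of the lineages for Ptgs2 held in all 12 alternatives, from -1.92 to -0.50 in 4T1p and from 0.13 to 1.63 in 4T1m. Scaling by the median gene was not among these 12. The lineage ratio of the median gene was 0.76 in 4T1p and 0.89 in 4T1m. In 4T1m the Ptgs2 ratio, 0.99 (0.93 to 1.05), lay only a little above that of the median gene. The order of the lineages in 4T1m was examined on unscaled CPM only. No paired analysis was possible because each group holds 1 library. Depth limits Ptges, Ptger2 and, in single states, Alox5 and Ltc4s, where a few UMIs decide a ratio.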

Other observations

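Barcodes outside the filters held the members too. In the 443 and 560 barcodes of 4T1p and 4T1m above the mitochondrial limit, Ptgs2 stood at 360.3 and 597 CPM, beside 435 and 1335 CPM in the kept cells of the same libraries. In the 57 and 59 barcodes above the limits on genes or UMIs, Ptgs1 stood at 196 and 151 CPM, beside 132 and 86.8 CPM in the kept cells. Ptgs2 stood lower there than in the kept cells, at 302 and 668 CPM. Ptges stood at 1.89 CPM on 4 UMIs in 4T1p and 12.4 CPM on 26 UMIs in 4T1m, beside 2.54 and 3.94 CPM in the kept cells. The level of Ptgs2 was thus also higher in 4T1m among the barcodes above the mitochondrial limit, by a smaller distance.

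The unnamed Fabp5 state was counted in neither lineage because of its low depth. By markers its nearest lineage was monocytic-like: Apoe was seen in 85.1% of its cells, C1qa in 72.4% and S100a9 in 30.5%. The state held Alox5ap at 338 CPM in both libraries and Ltc4s at 106 CPM in 4T1p (75.9 to 143) and 67.1 CPM in 4T1m (46.8 to 93.3). Its Ptgs2 level was 80.0 CPM in 4T1p and 176 CPM in 4T1m, a log2 ratio of 1.14 (0.54 to 1.78) on 123 UMIs.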
